A study of Mus musculus with 45 samples.

Results

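Primary tumors of the 4T07 line were compared with primary tumors of the 67NR line, both taken 14 days after inoculation. The comparison used 6 of the 45 samples of the study, 3 tumors of each line, chosen by the line and the tissue that the labels give. Of 55367 gene symbols in the count table, 18943 had more than 10 counts over the 6 tumors and were tested. Both lines are mouse mammary carcinoma lines derived from 1 spontaneous tumor of a BALB/cfC3H mouse, and both were placed in the mammary fat pad of immunocompetent female BALB/c mice that carried a subcutaneous polycaprolactone scaffold. Tumors of the metastatic sister line 4T1 entered the fit for the estimate of spread but are not described. The age of the mice was not given in the labels. Each arm is a single cell line, so any difference that separates the lines for reasons other than invasion cannot be told apart from invasion itself, and nothing in the labels says whether the 3 tumors of a line came from separate cultures. The p-values therefore set the difference between the lines against the spread between tumors of a line, estimated with the 4T1 tumors in the fit. They do not cover a spread between cell lines or cultures.

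The sister lines are used because they stop at different steps of spread. 67NR cells grow where they are injected and do not leave, whereas 4T07 cells enter the blood and reach distant organs without growing into macroscopic metastases. A tumor in an intact host also holds fibroblasts, vessels and leukocytes, and in bulk RNA fewer cells of a type and less RNA per cell cannot be told apart. Programs often read in such tumors are the epithelial and mesenchymal states of carcinoma cells, the matrix that fibroblasts lay down, the interferon response, and the granulocytes that growth factors from 4T1-family tumors draw from the bone marrow.

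Counts came from 3′ tag libraries, in which a transcript gives about the same signal whatever its length. The 67NR tumors held 3720818, 3574544 and 3542368 counts, and the 4T07 tumors 4982800, 5511691 and 3543303. Levels are given in CPM, counts per 1000000 of a library total scaled by edgeR's TMM factors, and always in the order of tumors 1, 2 and 3 of a line. A level of 3 counts, the smallest taken as measurable, corresponded on average to 0.944 CPM in 67NR tumors and to 0.610 CPM in 4T07. Where a line had no counts the fold is a lower bound against that floor, and where it had 1 to 3 counts the ratio is given with a 95% exact binomial interval, which covers counting error only. Parentheses give the log2 fold change (log2 fold), 4T07 minus 67NR, with a standard error and the adjusted p of edgeR's quasi-likelihood fit (Benjamini-Hochberg, all genes tested). The log2 fold follows without any single tumor that moved it by more than 1.5 times or ended the call. Genes named after their values were seen were not part of that check, so the lack of such a value says nothing about them. The standard error is no output of the fit but was derived as the absolute log2 fold over the square root of the F statistic. It is only approximate, above all for genes near 0 in a line. For 1 gene, 3 tumors against 3, an exact permutation test could not give a p under 0.1.

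The threshold was an adjusted p under 0.05 together with a fold over 2. It was passed by 5871 genes (31.0%), 3244 (17.1%) higher and 2627 (13.9%) lower in 4T07 tumors. In 9864 genes (52.1%) all tumors of a line lay on the same side of all tumors of the other. The median log2 fold change of all genes tested was 0.07, and every list is to be read against these shares and this median. A list median marked at bounds takes genes with no counts in a line at their lower bound, and is given where it differed. Counts of 1 or 2 genes in a direction shifted with the tumor left out, and nothing is read from them. The balance of the directions rested on the scaling. With library totals in place of TMM factors the median of all genes moved to 0.38, 4493 genes were higher and 1698 lower, and 72.6% of calls were higher instead of 55.3%.

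The labels of the tumors were then set against the organs of the same series, because the genes that separated the tumors most were also measured in spleens, lungs and scaffolds. The 12 genes lowest in 4T07 against 67NR tumors, named further on, summed to 1757, 1661 and 1601 CPM of the library total in the 67NR tumors and to 41.9, 11.8 and 4.23 CPM in the 4T07 tumors. In the spleens labelled 4T07 the same 12 genes summed to 199.5, 162 and 73.0 CPM, and all 12 had counts in each spleen. The spleens labelled 67NR held 0.209 to 1.02 CPM and the control spleens 0.388 to 1.15 CPM. Of these spleens those labelled 4T07 thus held the genes that marked the tumors labelled 67NR, and those labelled 67NR lay within or below the range of the controls.

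**Figure D1:**
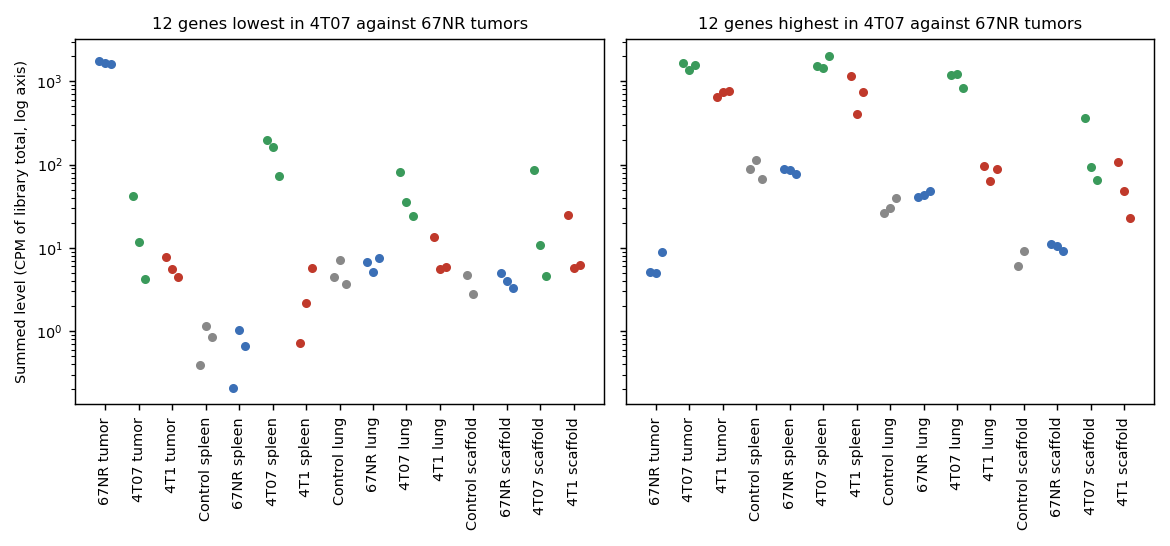
Summed level (CPM of the library total, log axis) of the 12 genes lowest (left) and the 12 genes highest (right) in 4T07 against 67NR tumors. Each point is 1 tumor, spleen, lung or scaffold library, and 1 control scaffold that was not used is absent. The 12 lowest genes stand at 1601 to 1757 CPM in 67NR tumors and at 73.0 to 199.5 CPM in 4T07 spleens, against 0.209 to 1.02 CPM in 67NR spleens.

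The lungs labelled 4T07 held 80.9, 35.9 and 24.3 CPM of these genes, against 5.20 to 7.67 CPM in 67NR lungs and 3.72 to 7.21 CPM in control lungs. The scaffolds labelled 4T07 held 86.7, 10.8 and 4.66 CPM, against 3.28 to 4.99 CPM in the 67NR scaffolds. Only the third 4T07 scaffold lay within the 67NR range. Rhox5, an X-linked homeobox gene of reproductive tissues and the gene with the most counts of the 12, had 377, 509 and 97 counts in the 4T07 spleens and none in any 67NR or control spleen. In the 4T07 scaffolds it had 388, 26 and 9 counts, against 1, 2 and 1 in the 67NR scaffolds and none in the control scaffolds used. Its share of the summed counts was 47.5% in the 67NR tumors, 45.4% in the 4T07 spleens and 47.1% in the few counts of the 4T07 tumors. Pnma5 made up 21.7%, 14.7% and 20.8%. Organs labelled 4T1 held some of the 12 genes as well, with 24.7 CPM in the first scaffold, 13.7 CPM in the first lung and 0.719 to 5.71 CPM in the spleens. Among the 12 genes highest in 4T07 tumors, Prg2 and Fcnb, named further on, were also higher in the 4T07 than in the 67NR spleens (adjusted p = 1.17e-06 and 1.20e-06, edgeR), in the direction of the tumor labels. Unlike the 12 lowest genes, both were well measured in control spleens without a tumor. There Prg2 was at 66.2, 63.5 and 30.8 CPM and Fcnb at 4.27, 10.4 and 5.17 CPM of the library total. Pitx1, of the same 12, had 1, 8 and 9 counts in the 67NR lungs, 1, 0 and 0 in the 4T07 lungs and none in the control lungs. Directions below are those of the tumor labels. In the spleens all 12 lowest genes thus ran against the tumor labels, while Prg2 and Fcnb ran with the tumor labels. Which labels the organ signal goes with was not tested, and the labels do not link a tumor to the organs of its mouse.

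The 12 genes with the largest change upward among non-overlapping genes with a mean of at least 5 CPM named an epithelial keratin, developmental transcription factors, granulocyte genes and arginase. Arg1, which splits arginine and marks suppressive myeloid cells, was at 3.46, 4.29 and 6.84 CPM in 67NR tumors and at 944, 735 and 808 CPM in 4T07 (log2 fold 7.42 ± 0.27, adjusted p = 5.58e-10). Amigo2, a leucine-rich repeat adhesion protein, was at 0.865, 0.990 and 1.63 CPM in 67NR tumors and at 173, 202 and 202 CPM in 4T07 (log2 fold 7.35 ± 0.24, adjusted p = 4.01e-10). Artn, encoding artemin, a ligand of the GDNF family, was at 0, 0.330 and 0.326 CPM in 67NR tumors and at 54.4, 67.0 and 56.4 CPM in 4T07, a ratio of 286 with an interval of 79.0 to 2366 from 2 counts in 67NR. In all 3 of these genes every 4T07 tumor stood far above every 67NR tumor and the 4T07 tumors lay close together.

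Krt76, a keratin of stratified oral epithelium, and Zic5, a zinc finger factor of the neural plate, had no counts in any 67NR tumor, and every 4T07 tumor had them. Pitx1, a homeobox factor of the hindlimb, was at 0, 0 and 0.977 CPM in 67NR tumors and at 46.4, 74.3 and 59.8 CPM in 4T07, a ratio of 193 with an interval of 66.0 to 939.6. Foxq1, a forkhead factor, was at 0.288, 0 and 0 CPM in 67NR tumors and at 9.24, 32.3 and 20.2 CPM in 4T07, a ratio of 201 with an interval of 35.8 to 7959.7. Transcripts of these 4 genes were at most at the floor in the 67NR tumors. Dusp27, of the dual-specificity phosphatase family, and 5830444B04Rik were high in all 3 4T07 tumors as well.

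**Figure D2:**
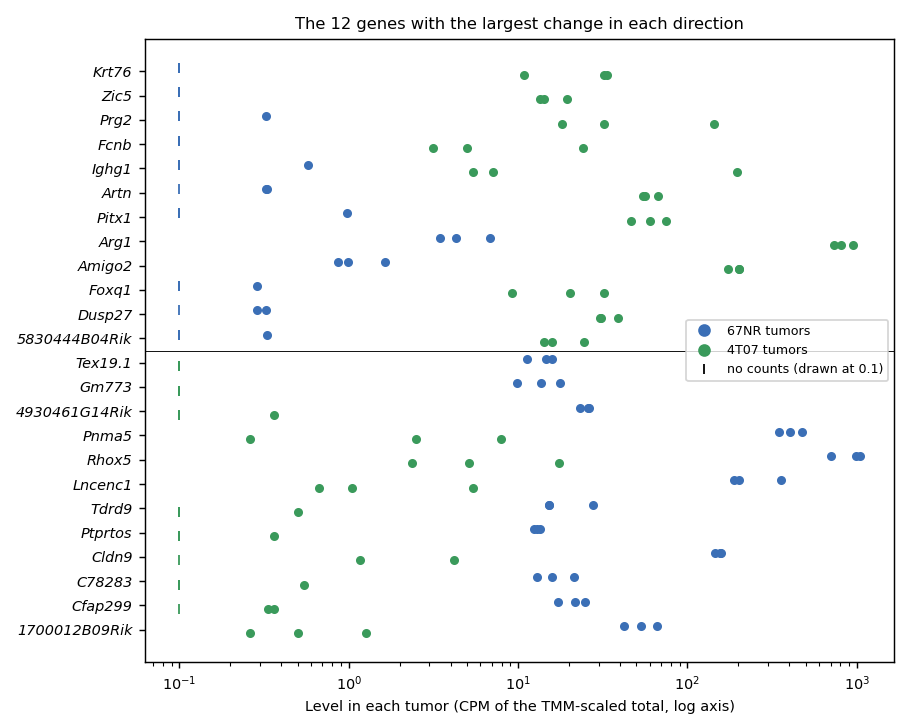
Level in each tumor (CPM of the TMM-scaled total, log axis) of the 12 genes with the largest change in each direction; points are single tumors, and ticks at the left mark tumors with no counts. No 4T07 tumor overlaps a 67NR tumor in any of the 24 genes.

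The other 3 genes of this group were led by a single tumor. Prg2, the major basic protein of eosinophil granules, and Fcnb, a ficolin of bone marrow myeloid cells, were highest in 4T07 tumor 1. Ighg1, the constant region of IgG1, was at 0.577, 0 and 0 CPM in 67NR tumors and at 5.44, 7.16 and 197 CPM in 4T07, a ratio of 258 with an interval of 71.1 to 2131, and only 4T07 tumor 3 held it above 10 CPM.

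Of the 12 genes with the largest change downward, 5 were in the list of germline and placental genes, namely Rhox5, Pnma5, Tex19.1, Tdrd9 and Lncenc1. That list was chosen with earlier results of these data known, so membership in it is no independent result. Rhox5 was at 701, 1049.8 and 983 CPM in 67NR tumors and at 17.4, 5.16 and 2.36 CPM in 4T07 (log2 fold -6.72 ± 0.49, adjusted p = 2.13e-07, -7.83 without 4T07 tumor 1). Pnma5, of the paraneoplastic antigen family, was at 475, 404 and 348 CPM in 67NR tumors and at 7.97, 2.50 and 0.262 CPM in 4T07 (log2 fold -6.74 ± 0.47, adjusted p = 1.67e-07, -7.98 without 4T07 tumor 1). Lncenc1, a long noncoding RNA of embryonic stem cells, was at 355, 201 and 188 CPM in 67NR tumors and at 5.44, 0.666 and 1.05 CPM in 4T07 (log2 fold -6.64 ± 0.47, adjusted p = 1.76e-07, -8.18 without 4T07 tumor 1). In each of them 4T07 tumor 1 held the most counts of the 4T07 tumors.

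Tex19.1, which restrains transposons in germ cells, was at 14.7, 11.2 and 16.0 CPM in 67NR and with no counts in 4T07 tumors, at least 22.9-fold lower, and Gm773 was at 17.6, 9.90 and 13.7 CPM in 67NR and with no counts in 4T07 tumors, at least 22.5-fold lower. Tdrd9, a helicase of the piRNA pathway, was at 27.7, 15.2 and 15.3 CPM in 67NR tumors and at 0, 0.50 and 0 CPM in 4T07, which is 3 counts in all. Cldn9, a claudin of tight junctions, was at 146, 157 and 155 CPM in 67NR tumors and at 4.17, 1.17 and 0 CPM in 4T07 (log2 fold -6.29 ± 0.46, adjusted p = 2.13e-07, -7.71 without 4T07 tumor 1), with no counts in 4T07 tumor 3. The remaining 5 were 4930461G14Rik, Ptprtos, C78283, Cfap299 and 1700012B09Rik. Of these 1700012B09Rik was at 66.3, 42.3 and 53.4 CPM in 67NR tumors and at 1.27, 0.50 and 0.262 CPM in 4T07 (log2 fold -6.19 ± 0.36, adjusted p = 4.34e-08, -6.96 without 4T07 tumor 1). Ptprtos lies antisense to Ptprt, and since it is not stated whether counting used the strand, its reads cannot be told apart from those of its partner. The 67NR tumors lay well above the 4T07 tumors in all 12 genes.

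Among called, non-overlapping genes with the highest mean level, those higher in 4T07 tumors were globins, matrix and stress genes. Spp1, encoding osteopontin, was at 562, 639 and 646 CPM in 67NR tumors and at 1802, 2800.4 and 2394 CPM in 4T07 (log2 fold 1.92 ± 0.20, adjusted p = 3.89e-06). Hspa5, the main chaperone of the endoplasmic reticulum, was at 734, 885 and 734 CPM in 67NR tumors and at 2498, 3022 and 2603 CPM in 4T07 (log2 fold 1.79 ± 0.17, adjusted p = 2.64e-06). The tumors of the 2 lines did not overlap in these genes. H2-D1, a heavy chain of MHC class I, was at 910.3, 1523 and 1513 CPM in 67NR tumors and at 2940.4, 2696 and 2595 CPM in 4T07 (log2 fold 1.06 ± 0.22, adjusted p = 0.0013, 0.85 and not past the threshold without 67NR tumor 1).

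Those lower in 4T07 tumors were small calcium-binding proteins, a galectin and ribosomal proteins. S100a4, long studied as a protein of motile and metastatic cells, was at 5851, 4099 and 4294 CPM in 67NR tumors and at 319, 349 and 188 CPM in 4T07 (log2 fold -4.05 ± 0.35, adjusted p = 8.77e-07). Lgals1, encoding galectin-1, was at 2935, 5613 and 4986 CPM in 67NR tumors and at 1643, 1884 and 1549 CPM in 4T07 (log2 fold -1.41 ± 0.23, adjusted p = 2.18e-04). The lines did not overlap in either and were furthest apart in S100a4.

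Interferon gamma is made by T and NK cells and acts on promoters through the gamma-activated site (GAS) and, by way of the factor IRF1 and its relatives, through the interferon-stimulated response element (ISRE). Of 36 tested genes known to respond to it, 31 were higher and 2 lower in 4T07 tumors, with a median log2 fold change of 2.43 (2.33 at bounds) against 0.07 for all genes. In the 15 other settings tried, between 25 and 32 members were higher. The promoters of 4 genes of this and the hypoxia list are printed here, from 250 bases before to 50 bases after the annotated start in RefSeq (GRCm38.p6, plus strand). They were chosen after their values were seen, to show a promoter with both interferon motifs, with an ISRE, with a GAS and with a hypoxia response element. Capitals mark every match on either strand of a pair of GAAA separated by any 2 bases (ISRE) and of TTC and GAA separated by any 3 bases (GAS) in the first 3 and of ACGTG (the core of the hypoxia response element, HRE) in Ak4.
Gbp7, chr3:142530086-142530385: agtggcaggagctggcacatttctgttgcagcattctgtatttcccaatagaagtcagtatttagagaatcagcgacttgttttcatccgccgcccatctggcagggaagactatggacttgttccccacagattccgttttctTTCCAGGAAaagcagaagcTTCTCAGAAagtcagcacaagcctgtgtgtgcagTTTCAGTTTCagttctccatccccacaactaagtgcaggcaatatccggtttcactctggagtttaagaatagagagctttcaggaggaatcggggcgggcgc
Gbp2b, chr3:142594597-142594896: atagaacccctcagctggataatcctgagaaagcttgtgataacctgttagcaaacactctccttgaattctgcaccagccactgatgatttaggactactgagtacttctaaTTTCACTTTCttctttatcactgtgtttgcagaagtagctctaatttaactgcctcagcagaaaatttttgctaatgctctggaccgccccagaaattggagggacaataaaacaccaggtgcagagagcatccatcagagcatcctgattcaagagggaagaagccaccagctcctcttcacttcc
Irf1, chr11:53769764-53770063: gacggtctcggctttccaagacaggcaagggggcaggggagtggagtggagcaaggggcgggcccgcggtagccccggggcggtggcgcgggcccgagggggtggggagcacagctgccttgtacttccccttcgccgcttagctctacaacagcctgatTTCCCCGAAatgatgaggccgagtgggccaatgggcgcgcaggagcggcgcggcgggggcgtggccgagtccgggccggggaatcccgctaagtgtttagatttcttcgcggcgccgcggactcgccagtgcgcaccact
Ak4, chr4:101419453-101419752: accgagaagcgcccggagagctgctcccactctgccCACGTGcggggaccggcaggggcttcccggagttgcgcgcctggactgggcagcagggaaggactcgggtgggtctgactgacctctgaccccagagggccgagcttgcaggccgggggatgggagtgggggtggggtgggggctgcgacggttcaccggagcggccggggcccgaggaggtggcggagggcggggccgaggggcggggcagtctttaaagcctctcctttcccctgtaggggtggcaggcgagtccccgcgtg

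A promoter was held for 23 of the 36 genes. An ISRE was found in 12 of them (52.2%), against 3.99% of 27025 symbols with a promoter, and a GAS in 10 (43.5%), against 9.55%. The wider interferon-stimulated list given below, which moved less, held an ISRE in 20 of 36 promoters (55.6%) and a GAS in 6 (16.7%). The MHC class I presentation list below, which rose, held them in 5 (25.0%) and 2 (10.0%) of 20. Of these lists the wider one had the highest share with an ISRE and the gamma list the highest share with a GAS. Both motifs were present in 6 of the 23 (26.1%), in 4 of the 36 (11.1%), in 0 of the 20 and in 0.540% of all symbols. The 2 motifs overlapped in none of the 23. Whether motif content and change were linked was not tested. Gbp7, a guanylate-binding protein that attacks membranes around pathogens, was at 64.3, 52.2 and 48.5 CPM in 67NR tumors and at 283, 265 and 236 CPM in 4T07 (log2 fold 2.25 ± 0.23, adjusted p = 3.32e-06). Gbp2b, of the same family, was at 34.0, 41.3 and 33.2 CPM in 67NR tumors and at 365, 322 and 238 CPM in 4T07 (log2 fold 3.09 ± 0.31, adjusted p = 3.36e-06). In both genes every 4T07 tumor was above every 67NR tumor by a wide margin. Of the 2 genes of the list that were lower, Upp1 held neither interferon motif and Fcgr1 held a GAS, and Cxcl10 and Socs1, which did not pass the threshold, each held an ISRE, and Psmb10, which did not pass either, held neither. A match of letters is a description, not a site.

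Cd274, encoding the checkpoint ligand PD-L1, was at 3.46, 0.660 and 2.93 CPM in 67NR tumors and at 60.7, 66.6 and 42.2 CPM in 4T07 (log2 fold 4.55 ± 0.40, adjusted p = 9.16e-07). Nos2, the inducible nitric oxide synthase, was at 0, 0.990 and 3.26 CPM in 67NR tumors and at 58.2, 57.3 and 29.4 CPM in 4T07 (log2 fold 5.12 ± 0.71, adjusted p = 5.80e-05, 4.49 without 67NR tumor 1, 6.63 without 67NR tumor 3). Both rose from a few CPM or less, and the 3 tumors of a line did not overlap those of the other. Ifng itself, named after its values were seen, was at 1.44, 1.98 and 0.651 CPM in 67NR tumors and at 5.44, 4.16 and 3.67 CPM in 4T07 (log2 fold 1.69 ± 0.48, adjusted p = 0.0105). Fcgr1, a high-affinity IgG receptor of macrophages that interferon also induces, fell by 1.81 (from 33.7, 47.5 and 44.6 to 15.6, 10.2 and 9.97 CPM), and Socs1, a feedback inhibitor, was at 39.5, 74.6 and 71.3 CPM in 67NR tumors and at 69.4, 55.8 and 48.8 CPM in 4T07 (log2 fold -0.09 ± 0.25, adjusted p = 0.801).

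The wider list of interferon-stimulated genes, most of which respond to type I interferon, moved less. Of 50 tested, 16 were higher and 8 lower, with a median of 0.21. Among those higher were Parp9 and, with the values given here, its partner Dtx3l (31.7, 28.7 and 21.2 against 96.1, 107 and 108 CPM, log2 fold 1.93 ± 0.19, adjusted p = 3.00e-06). Among those lower were Ifi27l2a, a mitochondrial interferon-induced protein, at 224, 338 and 302 CPM in 67NR tumors and at 51.8, 47.3 and 50.6 CPM in 4T07 (log2 fold -2.53 ± 0.22, adjusted p = 9.47e-07) and Ifit3b (log2 fold -2.20 ± 0.29, adjusted p = 3.81e-05). Ifitm3, a membrane restriction factor, stood at 749.7, 839 and 789 against 616, 682 and 567 CPM and did not pass (adjusted p = 0.0798). Where the gamma list moved almost as a block, this list held called genes of both directions. Its share of lower genes was near the 13.9% of all genes, and its share of higher genes lay above their 17.1%.

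Genes of antigen presentation to CD8 T cells rose with the interferon gamma list, in which Psmb8 and Psmb9 are also counted. Of 23 tested, 15 were higher and none lower, with a median of 1.26 (1.20 at bounds). Tap1, a subunit of the peptide transporter, was at 65.2, 48.5 and 34.9 CPM in 67NR tumors and at 315, 301 and 289 CPM in 4T07 (log2 fold 2.61 ± 0.24, adjusted p = 1.36e-06). Psmb8, a catalytic subunit of the immunoproteasome, was at 39.5, 38.0 and 32.2 CPM in 67NR tumors and at 225, 248 and 154 CPM in 4T07 (log2 fold 2.52 ± 0.21, adjusted p = 6.32e-07). Both were separated between the lines. B2m, the light chain of class I, was at 1180.1, 2025 and 2166 CPM in 67NR tumors and at 3289, 3112 and 2740.1 CPM in 4T07 and did not reach a fold of 2 (log2 fold 0.77 ± 0.23, adjusted p = 0.0157). Among 12 genes of class II, 5 were higher and 1 lower, with a median of 0.80. Ciita, the master regulator of class II, was at 10.7, 9.57 and 5.21 CPM in 67NR tumors and at 29.2, 22.8 and 43.8 CPM in 4T07 (log2 fold 1.89 ± 0.33, adjusted p = 3.73e-04), whereas H2-Aa, a chain of class II itself, was at 858, 856 and 605 CPM in 67NR tumors and at 584, 424 and 579.6 CPM in 4T07 (log2 fold -0.55 ± 0.19, adjusted p = 0.0309) and Ifi30, a lysosomal thiol reductase, fell by 1.37 (adjusted p = 4.25e-05).

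**Figure D3:**
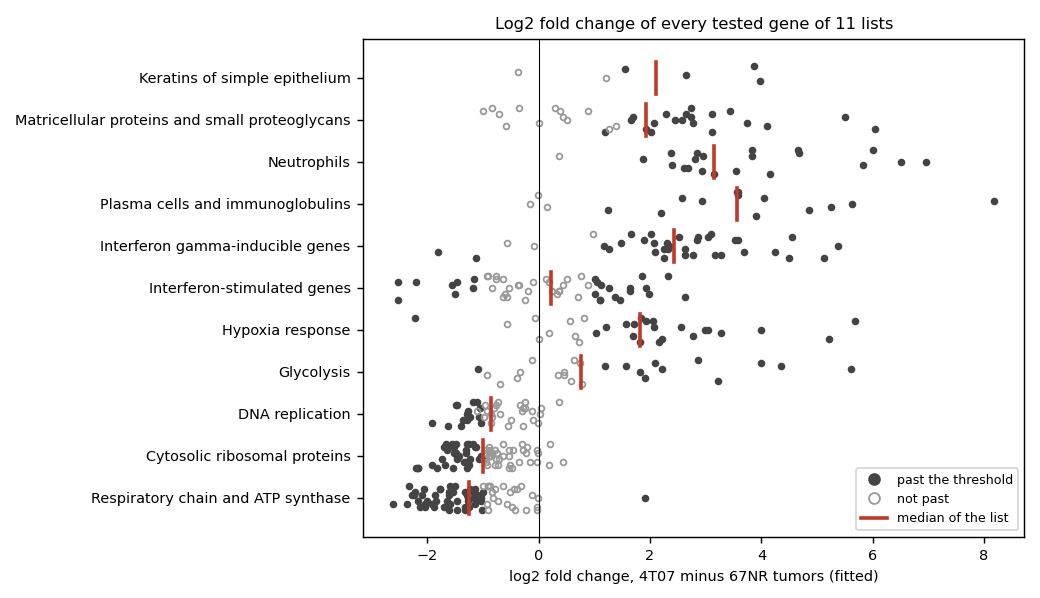
Fitted log2 fold change (4T07 minus 67NR) of every tested gene of 11 lists; filled points passed the threshold, open points did not, and red bars are list medians. The interferon gamma list lies to the right at a median of 2.43, and the ribosomal and respiratory lists to the left at -0.99 and -1.25.

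Epithelial genes were higher in 4T07 tumors. Among 6 tested keratins of simple epithelium, 4 were higher and none lower (median 2.10), and among 32 genes of epithelial junctions 16 were higher and 1 lower (median 1.60). The pair Krt8 and Krt18 forms the filaments of simple epithelial cells. Krt8 was at 1.44, 2.31 and 0.977 CPM in 67NR tumors and at 21.6, 33.0 and 19.7 CPM in 4T07 (log2 fold 3.97 ± 0.32, adjusted p = 4.51e-07), and Krt18 was at 3.17, 4.62 and 4.23 CPM in 67NR tumors and at 40.6, 75.0 and 60.1 CPM in 4T07 (log2 fold 3.87 ± 0.29, adjusted p = 2.75e-07). Krt8 and Krt18 rose together in all 3 4T07 tumors and remained low in all 3 67NR tumors.

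Ppl, the periplakin of desmosomes, was at 1.15, 1.65 and 1.63 CPM in 67NR tumors and at 22.8, 40.6 and 28.6 CPM in 4T07 (log2 fold 4.37 ± 0.32, adjusted p = 2.24e-07). Itgb4, the integrin chain of hemidesmosomes, was at 2.31, 5.28 and 3.58 CPM in 67NR tumors and at 36.4, 69.0 and 36.2 CPM in 4T07 (log2 fold 3.68 ± 0.33, adjusted p = 1.22e-06). Cdh1, encoding E-cadherin and named after its values were seen, was at 9.23, 16.2 and 5.21 CPM in 67NR tumors and at 54.0, 65.8 and 57.7 CPM in 4T07 (log2 fold 2.54 ± 0.27, adjusted p = 5.56e-06). All of these were low in 67NR tumors, and 15 of the 32 junction genes did not pass in either direction, among them Itga6 (138, 131 and 128 against 128, 128 and 172 CPM). Many members have few counts. When at least 10 counts were required in each tumor, 2 of the junction genes were called higher, a filter that removes genes near 0 in a line.

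Of 15 epithelial regulators 8 were higher and none lower (median 1.88). Gata3, the factor of the luminal mammary lineage, was at 49.0, 41.6 and 60.6 CPM in 67NR tumors and at 157, 226 and 172 CPM in 4T07 (log2 fold 1.88 ± 0.19, adjusted p = 2.99e-06). Klf5 did not pass, with overlapping levels of 47.0, 64.0 and 64.5 against 55.1, 74.0 and 65.3 CPM. Of 12 epithelial serine proteases and inhibitors, 7 were higher and none lower (median 1.95, 1.56 at bounds). Slpi, a secreted leukocyte protease inhibitor, was at 75.0, 133 and 95.8 CPM in 67NR tumors and at 744, 1136 and 885 CPM in 4T07 (log2 fold 3.19 ± 0.25, adjusted p = 3.56e-07), and Wfdc2, of the same whey acidic protein fold, was at 3.17, 10.9 and 2.93 CPM in 67NR tumors and at 282, 328 and 330.4 CPM in 4T07 (log2 fold 5.80 ± 0.34, adjusted p = 4.34e-08, 6.67 without 67NR tumor 2). Keratins of basal and stratified epithelium were not of a piece, with 3 of 7 higher and 1 lower. Krt5 rose by 2.45 (adjusted p = 3.31e-04) and the skin keratin Krt10 fell by 1.57. The list median of 0.25 turned negative without a filter on low counts (-0.73) and with at least 10 counts in each tumor (-1.01, 2 genes tested).

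The transcription factors that drive epithelial cells toward a mesenchymal state went in opposite directions. Of 14 tested, 6 were higher and 4 lower, with a median of 0.04. Foxc1, a forkhead factor, was at 14.1, 16.8 and 25.1 CPM in 67NR tumors and at 248, 325 and 289.5 CPM in 4T07 (log2 fold 3.95 ± 0.22, adjusted p = 3.72e-08). Snai1, a repressor of E-cadherin, was at 4.61, 7.92 and 9.77 CPM in 67NR tumors and at 46.8, 42.0 and 46.7 CPM in 4T07 (log2 fold 2.61 ± 0.25, adjusted p = 2.20e-06). Twist2, a basic helix-loop-helix factor, was at 34.9, 44.2 and 36.5 CPM in 67NR tumors and at 5.07, 6.00 and 6.56 CPM in 4T07 (log2 fold -2.71 ± 0.21, adjusted p = 3.21e-07), and Zeb1, another repressor of E-cadherin, was at 118, 104.98 and 94.5 CPM in 67NR tumors and at 40.4, 28.8 and 45.4 CPM in 4T07 (log2 fold -1.47 ± 0.19, adjusted p = 2.61e-05). Snai2 fell by 1.15 but did not pass without 4T07 tumor 2 (-0.99, adjusted p = 0.00748), and Twist1 fell by 1.92. Snai1 and Foxc1 were thus high in the tumors where Zeb1, Twist1 and Twist2 were low.

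Structural and surface genes of mesenchymal cells were also divided, with 11 of 24 higher and 6 lower (median 0.71). Cdh11, a cadherin of fibroblasts, was at 2.88, 4.29 and 1.30 CPM in 67NR tumors and at 29.9, 14.7 and 21.2 CPM in 4T07 (log2 fold 2.95 ± 0.39, adjusted p = 4.16e-05). Cdh2, encoding N-cadherin, was at 15.9, 15.2 and 17.3 CPM in 67NR tumors and at 1.63, 1.33 and 3.15 CPM in 4T07 (log2 fold -3.03 ± 0.37, adjusted p = 1.98e-05). Pdpn, the mucin-like podoplanin, was at 507, 617 and 491 CPM in 67NR tumors and at 107, 79.3 and 83.7 CPM in 4T07 (log2 fold -2.58 ± 0.18, adjusted p = 1.34e-07). The cadherins went opposite ways, each without overlap. Vim, the filament protein vimentin, was at 1270.1, 2268 and 2410.5 CPM in 67NR tumors and at 1111, 1117 and 1052 CPM in 4T07 and did not reach a fold of 2 (log2 fold -0.86 ± 0.22, adjusted p = 0.00549). The summed level of the list was 10219.9 to 11177 CPM in 67NR and 4883 to 6168 CPM in 4T07 tumors, lower although more members rose and S100a4 alone made up a large part of it.

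Genes of the interstitial matrix were higher in 4T07 tumors. Of 20 collagens, 10 were higher and 1 lower (median 0.85), and of 33 matricellular proteins and small proteoglycans 20 were higher and none lower (median 1.92, 1.70 at bounds). Col1a1 and Col1a2 encode the chains of type I collagen. Col1a1 was at 232, 204 and 244 CPM in 67NR tumors and at 1518, 1078 and 1741 CPM in 4T07 (log2 fold 2.67 ± 0.22, adjusted p = 5.12e-07), and Col1a2 was at 314, 506 and 537 CPM in 67NR tumors and at 2488, 1593 and 2732 CPM in 4T07 (log2 fold 2.33 ± 0.29, adjusted p = 2.14e-05). Col12a1, a collagen of fibril surfaces, was at 6.34, 4.29 and 6.84 CPM in 67NR tumors and at 82.8, 62.1 and 77.1 CPM in 4T07 (log2 fold 3.66 ± 0.23, adjusted p = 7.28e-08). The lowest 4T07 tumor stood above the highest 67NR tumor in all 3. Col8a1, a short-chain collagen, fell from 193, 202 and 232 to 65.2, 82.0 and 83.9 CPM (log2 fold -1.44 ± 0.19, adjusted p = 3.95e-05). The fibroblast markers moved with these genes, 11 of 20 higher and 1 lower, with a summed level of 1167 to 1289 CPM in 67NR and 1831 to 2019 CPM in 4T07 tumors. Their part in the collagen result was not tested.

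Tnc, encoding tenascin-C, was at 8.94, 7.59 and 6.51 CPM in 67NR tumors and at 49.7, 64.5 and 87.9 CPM in 4T07 (log2 fold 3.12 ± 0.27, adjusted p = 8.93e-07). Thbs1, an activator of latent TGF-beta, was at 2.88, 2.97 and 7.49 CPM in 67NR tumors and at 37.5, 36.1 and 41.7 CPM in 4T07 (log2 fold 3.11 ± 0.35, adjusted p = 8.80e-06). Ccn2, a connective tissue growth factor and target of the Hippo effector YAP, was at 0.288, 1.98 and 4.89 CPM in 67NR tumors and at 56.2, 215 and 45.9 CPM in 4T07 (log2 fold 5.50 ± 0.80, adjusted p = 8.21e-05, 6.58 without 67NR tumor 3, 4.45 without 4T07 tumor 2). Ccn2 was led by 4T07 tumor 2. Vcan, the proteoglycan versican, overlapped between the lines, at 97.5, 78.6 and 89.3 against 97.0, 67.1 and 101 CPM. Fn1, encoding fibronectin, rose by 1.26 but did not pass without 4T07 tumor 2 (adjusted p = 0.00485, log2 fold change 0.93), the highest of its line at 2446 CPM.

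Enzymes that crosslink and modify collagen went both ways, with 8 of 23 higher and 3 lower (median 0.42). Lox, a lysyl oxidase, was at 17.0, 9.90 and 13.4 CPM in 67NR tumors and at 179, 194 and 272 CPM in 4T07 (log2 fold 3.99 ± 0.26, adjusted p = 1.02e-07). Plod2, a lysyl hydroxylase, was at 26.2, 23.1 and 30.6 CPM in 67NR tumors and at 114, 184 and 219 CPM in 4T07 (log2 fold 2.69 ± 0.28, adjusted p = 4.95e-06). Pcolce and Pcolce2, which enhance procollagen cleavage, fell by 1.20 and 1.80 (adjusted p = 8.90e-05 and 2.93e-06), and Loxl4 fell by 1.73. The collagen chaperone Serpinh1 was at 296, 385 and 351 CPM in 67NR tumors and at 159, 223 and 168 CPM in 4T07, without overlap but under a fold of 2 (log2 fold -0.91 ± 0.17, adjusted p = 7.28e-04). Basement membrane genes had 5 of 22 higher and none lower (median 0.57). Lama5, a laminin chain, was at 25.1, 24.1 and 21.8 CPM in 67NR tumors and at 110.4, 165 and 131 CPM in 4T07 (log2 fold 2.52 ± 0.18, adjusted p = 2.20e-07), whereas Col4a1 was at 236, 359 and 352 CPM in 67NR tumors and at 368, 316 and 217 CPM in 4T07, with overlap. Of 19 integrin subunits, 7 were higher and none lower (median 0.37). The most abundant chain, Itgb1, stood at 502, 656 and 552 against 405, 418 and 508 CPM, not past the threshold.

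Matrix proteases and their inhibitors had 19 of 38 genes higher and 1 lower (median 1.13). Mmp12, a macrophage elastase, was at 14.7, 8.58 and 15.3 CPM in 67NR tumors and at 617, 270.2 and 305 CPM in 4T07 (log2 fold 4.94 ± 0.38, adjusted p = 3.21e-07). Mmp13, a collagenase, was at 4.90, 4.29 and 4.23 CPM in 67NR tumors and at 162, 72.6 and 104 CPM in 4T07 (log2 fold 4.64 ± 0.41, adjusted p = 1.10e-06). For both the 2 lines were fully separated. Timp2, an inhibitor of these proteases, was at 1905, 1656 and 1468 CPM in 67NR tumors and at 996, 757 and 1222 CPM in 4T07 (log2 fold -0.76 ± 0.19, adjusted p = 0.00561), lower in every 4T07 tumor but within a fold of 2. Mmp13, Mmp12, Mmp3, Mmp10, Mmp8 and Mmp27 are 6 tested neighbours in the order of the RefSeq gene table (GRCm38.p6), all of them higher. Mmp27 did not pass in 4 of the 6 fits with a tumor left out.

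Hypoxia-response genes were higher in 4T07 tumors. When oxygen is low, the factor HIF1 accumulates and induces glycolysis, pH control and vessel growth through the HRE. Of 29 tested genes 20 were higher and 1 lower (median 1.82), and of 24 genes of glycolysis 11 were higher and 1 lower (median 0.76). Ak4, a mitochondrial adenylate kinase whose promoter is printed above, was at 1.15, 0.330 and 1.30 CPM in 67NR tumors and at 40.6, 54.8 and 53.5 CPM in 4T07 (log2 fold 5.68 ± 0.31, adjusted p = 3.72e-08). Pdk1, which keeps pyruvate out of mitochondria, was at 8.94, 6.93 and 11.1 CPM in 67NR tumors and at 107, 179 and 144 CPM in 4T07 (log2 fold 3.99 ± 0.23, adjusted p = 4.34e-08). In these genes all 67NR tumors were low and all 4T07 tumors high.

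Hk2, which phosphorylates glucose on entry, was at 70.6, 80.2 and 81.4 CPM in 67NR tumors and at 506, 819 and 829 CPM in 4T07 (log2 fold 3.21 ± 0.24, adjusted p = 2.23e-07). Ldha, lactate dehydrogenase, was at 539.8, 715 and 658 CPM in 67NR tumors and at 992, 1122 and 1172 CPM in 4T07, without overlap but under a fold of 2 (log2 fold 0.78 ± 0.17, adjusted p = 0.00171). Not every target moved with the list. Adm, encoding adrenomedullin, fell to 9.79, 20.2 and 16.5 CPM from 73.2, 84.8 and 59.6 CPM (log2 fold -2.23 ± 0.24, adjusted p = 5.78e-06), and Fam162a was at 81.3, 99.0 and 94.8 CPM in 67NR tumors and at 59.1, 208 and 43.3 CPM in 4T07, above the 67NR tumors in 4T07 tumor 2 and below them in the others. Of 22 hypoxia genes with a promoter 17 (77.3%) held the core ACGTG, and of 23 glycolysis genes 14 (60.9%), against 21.8% of all symbols and 27.7% of the symbols tested. The Ak4 promoter held 2 matches on opposite strands, which overlap in the printed letters, and the promoter of Pdk1 held none.

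**Figure D4:**
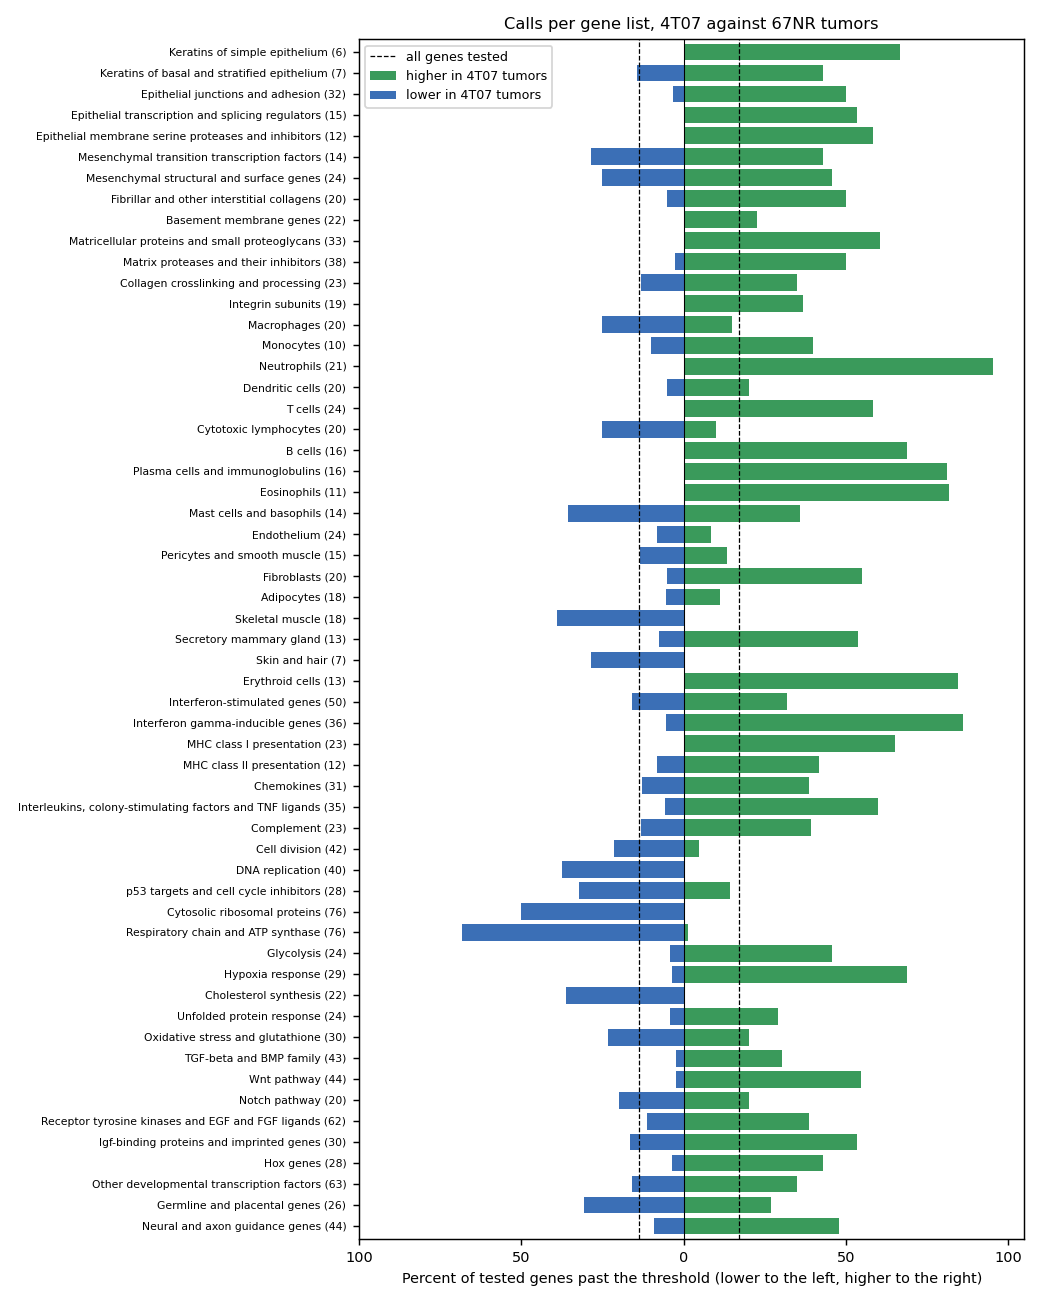
Percent of the tested genes of each list that passed the threshold, with genes lower in 4T07 tumors to the left and higher to the right; numbers in parentheses are genes tested, and dashed lines mark 13.9% and 17.1%, the shares over all genes. Neutrophil, interferon gamma, erythroid, eosinophil and immunoglobulin lists reach furthest to the right, and the respiratory list furthest to the left.

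Granulocyte genes were higher in 4T07 tumors, and their level differed widely from tumor to tumor. Of 21 neutrophil markers 20 were higher and none lower (median 3.14), and their summed level was 72.3 to 525 CPM in 67NR and 1251 to 5299 CPM in 4T07 tumors. S100a8 and S100a9 form the calprotectin of neutrophils. S100a8 was at 12.7, 237 and 9.45 CPM in 67NR tumors and at 1869.6, 735 and 393 CPM in 4T07 (log2 fold 3.54 ± 0.90, adjusted p = 0.00575, 6.49 without 67NR tumor 2, 2.72 without 4T07 tumor 1), and S100a9 was at 11.2, 162 and 7.82 CPM in 67NR tumors and at 2034, 742 and 422 CPM in 4T07 (log2 fold 4.15 ± 0.87, adjusted p = 0.00159, 6.79 without 67NR tumor 2, 3.28 without 4T07 tumor 1). Ly6g, the defining surface marker, was at 0, 3.30 and 0 CPM in 67NR tumors and at 56.4, 16.5 and 9.18 CPM in 4T07 (log2 fold 4.67 ± 0.87, adjusted p = 6.44e-04, 4.05 without 67NR tumor 1, 10.01 without 67NR tumor 2, 3.59 without 4T07 tumor 1). Without 67NR tumor 2 no Ly6g counts were left in 67NR, so that its fitted fold is no bound. 67NR tumor 2 stood above the other 67NR tumors in all 3, and 4T07 tumor 1 above the other 4T07 tumors.

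Genes of granules that are filled in the bone marrow were among them. Mpo, myeloperoxidase, was at 0.865, 0.660 and 0 CPM in 67NR tumors and at 111, 22.0 and 14.9 CPM in 4T07 (log2 fold 6.50 ± 1.01, adjusted p = 1.47e-04, 7.13 without 67NR tumor 1, 5.09 without 4T07 tumor 1). Ngp, a neutrophilic granule protein, was at 0.288, 8.25 and 0 CPM in 67NR tumors and at 352, 83.8 and 34.9 CPM in 4T07 (log2 fold 5.83 ± 0.95, adjusted p = 2.17e-04, 9.78 without 67NR tumor 2, 4.43 without 4T07 tumor 1). Both were highest in 4T07 tumor 1. Csf3r, the receptor for the neutrophil growth factor, was at 4.90, 7.26 and 4.89 CPM in 67NR tumors and at 9.24, 8.66 and 3.41 CPM in 4T07, with overlapping tumors (log2 fold 0.36 ± 0.37, adjusted p = 0.454). It is a defining marker of neutrophils, and it did not move with the granule genes.

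Eosinophil markers had 9 of 11 genes higher and none lower (median 3.75, 2.55 at bounds), from a summed level of 8.14 to 10.7 CPM in 67NR to 59.0 to 241 CPM in 4T07 tumors. Epx, eosinophil peroxidase, was with no counts in 67NR and at 15.4, 3.66 and 2.62 CPM in 4T07 tumors, at least 7.66-fold higher. Alox15, a lipoxygenase of eosinophils and macrophages, was at 2.02, 1.98 and 1.30 CPM in 67NR tumors and at 27.5, 30.1 and 14.2 CPM in 4T07 (log2 fold 3.75 ± 0.51, adjusted p = 4.76e-05), and Ccr3, the eotaxin receptor, was at 4.32, 2.64 and 1.95 CPM in 67NR tumors and at 15.9, 15.7 and 12.6 CPM in 4T07 (log2 fold 2.29 ± 0.32, adjusted p = 5.69e-05). Ccr3 and Alox15 were more even among the 4T07 tumors, whereas Epx was highest in tumor 1. No member of the list had at least 10 counts in each tumor. Ccl11, which encodes eotaxin, was among the chemokines that rose, and, named after its values were seen, was at 0.288, 0.990 and 1.95 CPM in 67NR tumors and at 8.88, 9.49 and 4.46 CPM in 4T07 (log2 fold 2.85 ± 0.59, adjusted p = 0.00146).

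**Figure D5:**
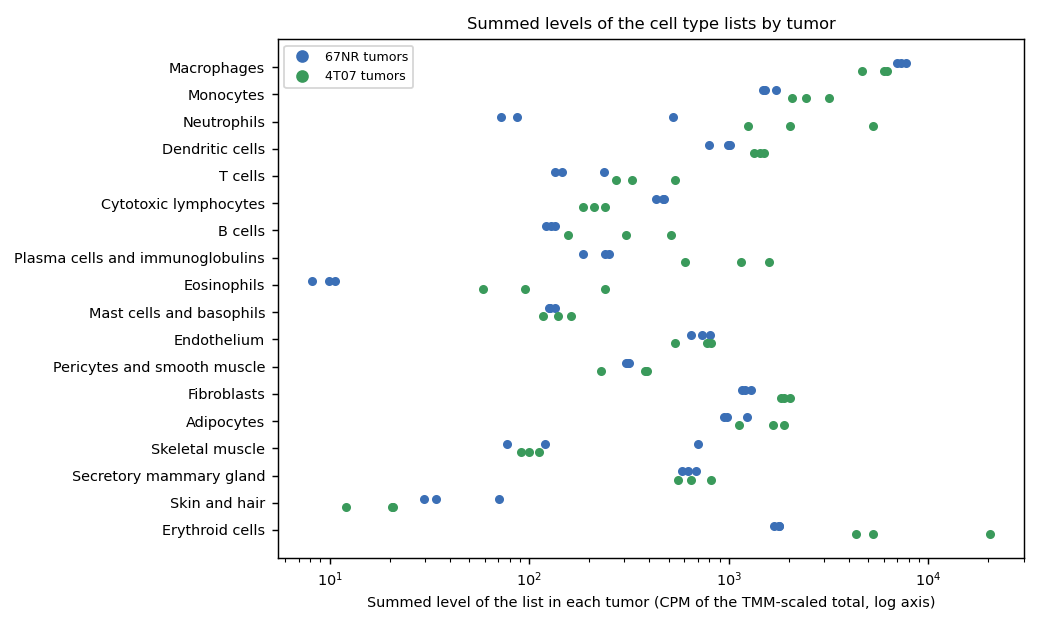
Summed level of each cell type list in each tumor (CPM of the TMM-scaled total, log axis), with 67NR tumors in blue and 4T07 tumors in green; each point is 1 tumor. Neutrophil, immunoglobulin, eosinophil and erythroid lists lie apart between the lines, endothelium and mast cell lists overlap, and the muscle list is high in 1 67NR tumor alone.

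Erythroid genes were also led by 4T07 tumor 1. Of 13 tested 11 were higher and none lower (median 2.91), and the sum was 1684 to 1783 CPM in 67NR and 4359 to 20490.5 CPM in 4T07 tumors. Hba-a1, an alpha globin, was at 441, 299 and 375 CPM in 67NR tumors and at 5456, 1386 and 1303 CPM in 4T07 (log2 fold 2.87 ± 0.45, adjusted p = 1.49e-04, 1.86 without 4T07 tumor 1). Klf1, the master factor of erythroid precursors, was at 2.02, 0.990 and 1.63 CPM in 67NR tumors and at 57.6, 15.3 and 7.34 CPM in 4T07 (log2 fold 4.09 ± 0.71, adjusted p = 3.76e-04, 2.87 without 4T07 tumor 1). The globins, the precursor gene Klf1 and the granule genes were all highest in 4T07 tumor 1. Whether that tumor held more blood or more precursors was not tested.

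Most macrophage markers did not pass the threshold. Of 20 tested 3 were higher and 5 lower (median -0.49), with a sum of 6987 to 7767 CPM in 67NR and 4670 to 6186 CPM in 4T07 tumors. Csf1r, the receptor for macrophage growth factor, was at 415, 369 and 299.7 CPM in 67NR tumors and at 139, 90.8 and 116 CPM in 4T07 (log2 fold -1.64 ± 0.19, adjusted p = 1.43e-05). Lyz2, a lysozyme of myeloid cells, was at 934, 1491 and 1295 CPM in 67NR tumors and at 655, 461 and 334 CPM in 4T07 (log2 fold -1.36 ± 0.26, adjusted p = 8.23e-04). Gpnmb, a glycoprotein of lipid-laden macrophages and tumor cells, was at 48.7, 21.8 and 36.5 CPM in 67NR tumors and at 293, 329.8 and 259 CPM in 4T07 (log2 fold 3.04 ± 0.25, adjusted p = 6.68e-07). The defining markers Adgre1 (94.3, 115 and 158 against 118, 82.6 and 64.8 CPM) and Cd68 (98.9, 60.7 and 70.4 against 73.9, 56.1 and 50.4 CPM) overlapped between the lines. Of 10 monocyte markers 4 were higher and 1 lower (median 0.62), but 2 of the 4, Fn1 and Thbs1, are matrix genes, and without 4T07 tumor 1 only 2 were higher. Ccr2, which monocytes use to leave the marrow, was at 107, 116 and 136 CPM in 67NR tumors and at 160.2, 158 and 189 CPM in 4T07 (log2 fold 0.50 ± 0.15, adjusted p = 0.0161). Of 20 dendritic cell markers 4 were higher and 1 lower (median 0.32).

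T cell markers were higher in 4T07 tumors, with 14 of 24 called and none lower (median 1.45), at a summed level of 134.5 to 238 CPM in 67NR and 271 to 539 CPM in 4T07 tumors. Cd3g, of the T cell receptor complex, was at 1.15, 1.32 and 0.977 CPM in 67NR tumors and at 5.98, 4.83 and 8.92 CPM in 4T07 (log2 fold 2.47 ± 0.52, adjusted p = 0.00154). Trac, the receptor's alpha constant chain, was at 12.4, 5.61 and 4.89 CPM in 67NR tumors and at 16.9, 11.5 and 45.4 CPM in 4T07 (log2 fold 1.64 ± 0.54, adjusted p = 0.0237, 1.46 and not past the threshold without 67NR tumor 2, 1.40 and not past the threshold without 67NR tumor 3, 0.91 and not past the threshold without 4T07 tumor 3). Trac was led by 4T07 tumor 3. The count of the list was 8 without 67NR tumor 2, without 67NR tumor 3 or without 4T07 tumor 3. Cytotoxic markers had 2 of 20 genes higher and 5 lower (median -0.50). Gzma, a granzyme of NK and T cells, was at 124, 131 and 151 CPM in 67NR tumors and at 23.7, 25.8 and 21.0 CPM in 4T07 (log2 fold -2.52 ± 0.17, adjusted p = 1.02e-07). Ccl5, a chemokine of the same cells, was at 203, 189 and 151 CPM in 67NR tumors and at 93.7, 55.3 and 78.4 CPM in 4T07 (log2 fold -1.25 ± 0.27, adjusted p = 0.00168), and the defining marker Prf1, perforin, stood at 29.1, 30.7 and 25.7 against 23.2, 20.2 and 18.4 CPM without passing. The 2 genes that rose were Gzmc and Ifng.

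B cell markers had 11 of 16 genes higher and none lower (median 2.35), and immunoglobulin and plasma cell genes 13 of 16 (median 3.57). Igkc, the kappa light chain, was at 36.3, 11.2 and 30.0 CPM in 67NR tumors and at 369.9, 153 and 640.4 CPM in 4T07 (log2 fold 3.90 ± 0.56, adjusted p = 8.35e-05). Ighd, encoding the IgD of naive B cells, was at 1.44, 1.65 and 1.63 CPM in 67NR tumors and at 14.0, 7.50 and 59.5 CPM in 4T07 (log2 fold 4.05 ± 0.89, adjusted p = 0.00209, 2.79 without 4T07 tumor 3). 4T07 tumor 3 was the highest in both genes, and tumor 2 the lowest of the 4T07 tumors. Igha was at 6.63, 2.97 and 2.61 CPM in 67NR tumors and at 7.25, 2.00 and 2.88 CPM in 4T07, with overlap. Of the defining markers of B cells, Cd79a was at 0.288, 0.330 and 0 against 1.99, 0.167 and 0.787 CPM. Reads of the immunoglobulin constant regions may be shared between near-identical genes, so single classes are uncertain.

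Mast cell and basophil genes were divided, with 5 of 14 higher and 5 lower. Lower were the connective tissue mast cell proteases Cma1 (13.3, 13.5 and 19.2 against 4.53, 3.00 and 4.46 CPM, log2 fold -1.94 ± 0.29, adjusted p = 9.95e-05) and Mcpt4 and the carboxypeptidase Cpa3 (log2 fold -1.55 ± 0.28, adjusted p = 5.26e-04). Higher were Hdc, the histamine-forming enzyme, at 11.5, 11.9 and 8.47 CPM in 67NR tumors and at 73.2, 57.1 and 63.7 CPM in 4T07 (log2 fold 2.601 ± 0.20, adjusted p = 3.56e-07), which neutrophils also express, and Kit (log2 fold 1.27 ± 0.29, adjusted p = 0.00292). Kitl, the ligand of Kit, was at 178, 249 and 304 CPM in 67NR tumors and at 73.0, 76.5 and 60.1 CPM in 4T07 (log2 fold -1.80 ± 0.20, adjusted p = 9.09e-06). The proteases of mature mast cells and the receptor thus moved in opposite directions, without overlap.

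Few vessel genes passed the threshold. Of 24 endothelial markers 2 were higher and 2 lower (median 0.08), and the defining markers Pecam1 (51.0, 48.5 and 42.3 against 65.4, 45.1 and 85.8 CPM), Cdh5 and Kdr overlapped between the lines. Flt1, a receptor for VEGF, was at 51.0, 56.8 and 52.4 CPM in 67NR tumors and at 113, 96.3 and 127 CPM in 4T07 (log2 fold 1.07 ± 0.19, adjusted p = 5.34e-04). Pericyte and smooth muscle genes had 2 of 15 higher and 2 lower (median 0.07), and adipocyte genes 2 of 18 higher and 1 lower (median 0.05). The signs of these 3 medians turned in 3 or 4 of the 15 other settings.

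The muscle and skin lists depended on 67NR tumor 3, and milk protein genes are given beside them. Of 18 skeletal muscle genes none was higher and 7 were lower, and their sum was 77.6 to 703 CPM in 67NR and 91.3 to 112 CPM in 4T07 tumors. Acta1, skeletal actin, was at 8.07, 0.660 and 117 CPM in 67NR tumors and at 3.08, 1.67 and 4.98 CPM in 4T07 (-3.75 on the log2 scale, -0.55 without 67NR tumor 3), so that a single 67NR tumor carried it. Without 67NR tumor 3 none of the 18 genes passed and the median was 0.24 in place of -2.89, and none passed without 4T07 tumor 2 or 3 and 2 without 4T07 tumor 1. Milk protein genes had 7 of 13 higher and 1 lower (median 2.15). Csn2, beta-casein, was at 2.02, 0.660 and 0.977 CPM in 67NR tumors and at 22.1, 87.1 and 178 CPM in 4T07 (log2 fold 6.22 ± 0.73, adjusted p = 1.38e-05, 6.80 without 67NR tumor 1, 5.47 without 4T07 tumor 3), and Csn3, kappa-casein, was at 71.8, 159 and 170.0 CPM in 67NR tumors and at 14.7, 42.5 and 39.6 CPM in 4T07 (log2 fold -2.05 ± 0.38, adjusted p = 6.59e-04). The lines did not overlap in Csn2 or in Csn3, and which cells expressed them was not tested. The count of milk genes higher fell to 3 without 4T07 tumor 3, and to 4 without 67NR tumor 1 or 67NR tumor 3. Of 7 skin genes 2 were lower, and the median of -1.30 was 0.58 without 67NR tumor 3.

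Among chemokines and cytokines, more genes were higher than lower in 4T07 tumors. Of 31 chemokines 12 were higher and 4 lower (median 1.01). Cxcl5, which attracts neutrophils through CXCR2, was at 29.1, 8.91 and 9.77 CPM in 67NR tumors and at 85.9, 166 and 135 CPM in 4T07 (log2 fold 3.00 ± 0.39, adjusted p = 3.03e-05, 3.78 without 67NR tumor 1). Cxcl2, of the same group, was at 1.73, 0 and 0.651 CPM in 67NR tumors and at 18.3, 38.6 and 45.4 CPM in 4T07 (log2 fold 5.31 ± 0.64, adjusted p = 1.81e-05, 6.58 without 67NR tumor 1). Ccl12, a monocyte attractant, was at 50.5, 128 and 141 CPM in 67NR tumors and at 29.9, 43.8 and 25.4 CPM in 4T07 (log2 fold -1.68 ± 0.31, adjusted p = 5.98e-04). The sum of neutrophil markers was highest in 4T07 tumor 1, while Cxcl2 and Cxcl5 were lowest there among the 4T07 tumors. The count of lower chemokines was 2 without 4T07 tumor 2.

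Of 35 interleukins, colony-stimulating factors and TNF ligands, 21 were higher and 2 lower (median 1.86, 1.68 at bounds). Csf3, the growth factor of neutrophils, named after its values were seen, was with no counts in 67NR and at 2.72, 7.33 and 7.87 CPM in 4T07 tumors (at least 6.32-fold higher, adjusted p = 6.69e-05). Il1b, a cytokine of myeloid cells, was at 20.8, 23.1 and 23.5 CPM in 67NR tumors and at 80.5, 157 and 139 CPM in 4T07 (log2 fold 2.48 ± 0.24, adjusted p = 2.47e-06). Tslp, an epithelial cytokine of type 2 immunity, was at 6.05, 5.61 and 4.89 CPM in 67NR tumors and at 34.1, 197 and 94.7 CPM in 4T07 (log2 fold 4.29 ± 0.52, adjusted p = 1.72e-05, 3.53 without 4T07 tumor 2). Tslp was led by 4T07 tumor 2. Complement had 9 of 23 genes higher and 3 lower (median 0.37). C3, the central component, was at 47.3, 23.1 and 28.0 CPM in 67NR tumors and at 368, 415 and 379 CPM in 4T07 (log2 fold 3.55 ± 0.25, adjusted p = 1.49e-07). The C1q chains, which macrophages make, did not follow, with C1qa at 1022, 939.5 and 919.6 against 1426, 979 and 1432 CPM and C1qb down by 1.14.

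Of the genes of cell division that passed, most were lower. Of 42 tested 2 were higher and 9 lower (median -0.45), and of 40 DNA replication genes none was higher and 15 were lower (median -0.86). Mcm7, a subunit of the replicative helicase, was at 129, 174 and 148 CPM in 67NR tumors and at 57.3, 47.1 and 66.4 CPM in 4T07 (log2 fold -1.40 ± 0.17, adjusted p = 2.05e-05). Cdk4, the kinase of the G1 phase, was at 67.5, 113 and 111 CPM in 67NR tumors and at 18.5, 26.7 and 19.145 CPM in 4T07 (log2 fold -2.17 ± 0.23, adjusted p = 4.81e-06), and Plk1, a mitotic kinase, was at 404, 289.9 and 255 CPM in 67NR tumors and at 134, 108 and 104 CPM in 4T07 (log2 fold -1.45 ± 0.19, adjusted p = 3.27e-05). These were lower in every 4T07 tumor. Top2a, a topoisomerase of dividing cells, was at 845, 758 and 739 CPM in 67NR tumors and at 674, 523 and 592 CPM in 4T07 (log2 fold -0.39 ± 0.16, adjusted p = 0.0604), and Ccnd1 overlapped, at 664, 909.8 and 813 against 718, 588 and 814 CPM. With library totals in place of TMM factors, 5 division genes and 6 replication genes were lower.

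Targets of p53 and inhibitors of the cell cycle had 4 of 28 genes higher and 9 lower (median -0.33). Cdkn2a, the locus of p16 and p19ARF, was at 173, 183 and 157 CPM in 67NR tumors and at 5.26, 1.67 and 1.84 CPM in 4T07 (log2 fold -5.83 ± 0.34, adjusted p = 4.34e-08, -6.59 without 4T07 tumor 1). Eda2r, a receptor and p53 target, was at 45.6, 81.5 and 71.0 CPM in 67NR tumors and at 3.08, 0.999 and 0.525 CPM in 4T07 (log2 fold -5.33 ± 0.40, adjusted p = 2.72e-07, -6.30 without 4T07 tumor 1). Cdkn1a, encoding p21, was at 383, 512 and 391.54 CPM in 67NR tumors and at 101, 68.0 and 102 CPM in 4T07 (log2 fold -2.24 ± 0.25, adjusted p = 8.68e-06). All 3 were lower in every 4T07 tumor. Cdkn1b, encoding p27, overlapped at 172, 214 and 197 against 130.5, 207 and 122 CPM. Trp53 itself, named after its values were seen, was at 54.5, 69.3 and 80.1 CPM in 67NR tumors and at 25.4, 20.2 and 35.4 CPM in 4T07 (log2 fold -1.34 ± 0.25, adjusted p = 5.72e-04).

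Genes of the respiratory chain and of ribosomes formed the largest groups that fell. Of 76 genes of the respiratory chain and ATP synthase 1 was higher and 52 were lower (median -1.25), and of 76 cytosolic ribosomal proteins none was higher and 38 were lower (median -0.99). Uqcr11, a subunit of complex III, was at 464, 600.2 and 567 CPM in 67NR tumors and at 118, 108 and 89.4 CPM in 4T07 (log2 fold -2.37 ± 0.18, adjusted p = 2.36e-07). Cox8a, of cytochrome oxidase, was at 926, 1854 and 2029 CPM in 67NR tumors and at 275, 312 and 197 CPM in 4T07 (log2 fold -2.61 ± 0.28, adjusted p = 6.45e-06). The gene that rose, Sdhd, had overlapping tumors and did not pass in 4 of the 6 fits with a tumor left out. Atp5a1 fell by 0.88 and did not reach a fold of 2.

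Rps26, a protein of the small ribosomal subunit, was at 3404, 4272 and 4137 CPM in 67NR tumors and at 1048, 1185 and 1082 CPM in 4T07 (log2 fold -1.83 ± 0.18, adjusted p = 3.40e-06). Rpl41, the shortest ribosomal protein, was at 2907, 3094 and 3574 CPM in 67NR tumors and at 662, 824 and 633 CPM in 4T07 (log2 fold -2.17 ± 0.20, adjusted p = 1.42e-06). Rplp1, of the stalk of the large subunit, was at 4147, 4635 and 3694 CPM in 67NR tumors and at 2442, 2449 and 2652 CPM in 4T07 and did not reach a fold of 2 (log2 fold -0.72 ± 0.18, adjusted p = 0.00417). The summed level of ribosomal proteins was 88754 to 107979 CPM in 67NR and 42419 to 57768 CPM in 4T07 tumors, without overlap. Ribosomal proteins have many processed copies, and Rpl10-ps3 was among the called genes with the highest level, so counts of single members are uncertain.

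These 2 groups hold short transcripts, and the change ran with transcript length across all genes. Among genes of at least 5 CPM the median log2 fold change was -0.51 for 817 genes under 0.8 kb, -0.28 for 2567 genes of 0.8 to 1.8 kb, -0.02 for 3642 genes of 1.8 to 3.5 kb and 0.17 for 2468 genes over 3.5 kb. The median length was 725.5 bases for the ribosomal list and 690 bases for the respiratory list. With an offset for transcript length, which tested 74 ribosomal and 75 respiratory genes, 25 and 39 were lower, and with library totals 23 and 34. Without the 100 genes with the most counts 23 ribosomal genes were lower. Those 100 genes were not tested in that setting, so its count cannot be set against 76. The groups fell in each of these settings, and how far length contributed to them was not tested further.

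Cholesterol synthesis had none of 22 genes higher and 8 lower (median -0.65). Dhcr7, the last enzyme of the pathway, was at 36.6, 35.7 and 27.4 CPM in 67NR tumors and at 9.61, 6.66 and 12.9 CPM in 4T07 (log2 fold -1.79 ± 0.25, adjusted p = 5.85e-05). With library totals 4 genes of this list were lower. The unfolded protein response had 7 of 24 genes higher and 1 lower (median 0.59), led by Atf3, a stress-induced factor, at 2.88, 4.95 and 3.91 CPM in 67NR tumors and at 25.7, 26.0 and 30.9 CPM in 4T07 (log2 fold 2.81 ± 0.29, adjusted p = 3.88e-06). Oxidative stress genes were split, with 6 of 30 higher and 7 lower (median -0.25, and 0.06 with library totals). Slc7a11, the cystine importer, was at 2.31, 2.97 and 0.977 CPM in 67NR tumors and at 101, 101 and 83.7 CPM in 4T07 (log2 fold 5.50 ± 0.28, adjusted p = 2.53e-08), and Hmox1, heme oxygenase, was at 115, 114 and 112 CPM in 67NR tumors and at 373, 429 and 389.7 CPM in 4T07 (log2 fold 1.80 ± 0.15, adjusted p = 5.08e-07). Gstm1, a glutathione transferase, was at 121, 123 and 98.4 CPM in 67NR tumors and at 30.6, 17.3 and 27.3 CPM in 4T07 (log2 fold -2.19 ± 0.22, adjusted p = 3.62e-06), and Gpx4, which repairs lipid peroxides, was at 66.6, 187 and 205 CPM in 67NR tumors and at 48.4, 41.8 and 18.6 CPM in 4T07 (log2 fold -2.06 ± 0.38, adjusted p = 5.70e-04). The importer rose in every 4T07 tumor, while both glutathione-using enzymes fell.

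Wnt signalling begins with secreted ligands that bind Frizzled receptors and ends in beta-catenin. Of 44 tested genes of the pathway 24 were higher and 1 lower (median 1.81). Wnt10b, a ligand of mammary and hair epithelium, was at 0, 0.660 and 0 CPM in 67NR tumors and at 22.1, 25.8 and 16.8 CPM in 4T07, a ratio of 106 with an interval of 29.2 to 882. Sfrp1, a secreted inhibitor, was at 12.4, 13.5 and 15.0 CPM in 67NR tumors and at 214, 99.6 and 189 CPM in 4T07 (log2 fold 3.62 ± 0.27, adjusted p = 2.22e-07). Ligand and inhibitor were thus both higher in all 4T07 tumors. Of the receptors, Lrp5 fell from 28.3, 33.0 and 28.3 to 11.6, 12.8 and 8.65 CPM (log2 fold -1.42 ± 0.21, adjusted p = 9.07e-05) and Fzd2 overlapped at 33.2, 38.0 and 32.9 against 22.7, 35.8 and 30.7 CPM. With at least 10 counts required in each tumor, 4 genes of the list were called higher.

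The TGF-beta and BMP family had 13 of 43 genes higher and 1 lower (median 0.50). Inhba, the activin A subunit, was at 4.04, 3.63 and 7.49 CPM in 67NR tumors and at 155, 254 and 242 CPM in 4T07 (log2 fold 5.42 ± 0.32, adjusted p = 4.34e-08). Fst, encoding follistatin, which binds activin, was at 0.865, 0.330 and 2.61 CPM in 67NR tumors and at 29.4, 31.0 and 23.6 CPM in 4T07 (log2 fold 4.45 ± 0.45, adjusted p = 3.55e-06, 5.45 without 67NR tumor 3). Grem1, a secreted BMP antagonist, was at 0.577, 0 and 0 CPM in 67NR tumors and at 13.4, 8.66 and 9.97 CPM in 4T07, a ratio of 51.2 with an interval of 13.9 to 426. Smad3, a transducer, overlapped at 155, 133 and 117 against 93.2, 127 and 114 CPM. Without 67NR tumor 1, 3 members were lower. Activin and its antagonist were again high together. The Notch pathway had 4 of 20 genes higher and 4 lower (median 0.33), near the 17.1% and 13.9% of all genes. The balance of its calls changed in 9 of the 15 other settings, and nothing is read from it. Jag1, a ligand, was at 7.78, 15.5 and 17.9 CPM in 67NR tumors and at 67.4, 51.1 and 43.0 CPM in 4T07 (log2 fold 1.98 ± 0.27, adjusted p = 5.73e-05), and Hes1, a target, was at 134, 216 and 191 CPM in 67NR tumors and at 74.9, 89.8 and 77.1 CPM in 4T07 (log2 fold -1.16 ± 0.19, adjusted p = 1.99e-04). The count of lower Notch genes was 2 without 67NR tumor 2 or 4T07 tumor 1.

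Among 62 receptor tyrosine kinases, their ligands and growth factors 24 were higher and 7 lower (median 0.79). The ligands of the EGF receptor exchanged places. Tgfa was at 0, 0.660 and 0.651 CPM in 67NR tumors and at 20.5, 22.3 and 18.4 CPM in 4T07 (log2 fold 5.52 ± 0.39, adjusted p = 1.58e-07, 4.90 without 67NR tumor 1), and Areg, encoding amphiregulin, was at 0.865, 2.64 and 1.63 CPM in 67NR tumors and at 16.7, 31.3 and 34.1 CPM in 4T07 (log2 fold 4.00 ± 0.38, adjusted p = 1.85e-06). Ereg, encoding epiregulin, was at 35.8, 46.2 and 48.9 CPM in 67NR tumors and at 1.81, 1.33 and 2.10 CPM in 4T07 (log2 fold -4.65 ± 0.29, adjusted p = 7.28e-08). Tgfa and Areg were high in all 4T07 tumors and low in all 67NR tumors, and Ereg was the reverse. Egfr, named after its values were seen, was at 3.75, 3.30 and 5.86 CPM in 67NR tumors and at 17.2, 20.0 and 23.6 CPM in 4T07 (log2 fold 2.23 ± 0.28, adjusted p = 2.52e-05).

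Developmental genes set the lines apart in both directions. Of 28 Hox genes, which give body position and keep it in adult cells, 12 were higher and 1 lower (median 1.25, 0.92 at bounds). Hoxa10 was at 0.577, 0.330 and 0.651 CPM in 67NR tumors and at 20.3, 26.5 and 18.1 CPM in 4T07 (log2 fold 5.31 ± 0.37, adjusted p = 1.57e-07). Hoxb8, the gene called lower, overlapped between the lines and did not pass in 4 fits with a tumor left out. Of 63 other developmental factors 22 were higher and 10 lower (median 0.70, 0.66 at bounds). Pax6, a factor of eye and brain, was at 25.9, 20.1 and 29.3 CPM in 67NR tumors and at 3.44, 2.33 and 1.57 CPM in 4T07 (log2 fold -3.31 ± 0.30, adjusted p = 1.53e-06), and Hmga1, a chromatin protein of embryonic cells, was at 21.9, 48.2 and 59.6 CPM in 67NR tumors and at 8.88, 11.8 and 7.34 CPM in 4T07 (log2 fold -2.18 ± 0.32, adjusted p = 8.48e-05). Pax6 and Hmga1 were lower in every 4T07 tumor, against Zic5, Pitx1 and Foxq1 given above.

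Of 26 germline and placental genes 7 were higher and 8 lower (median -0.27). Besides Rhox5, Pnma5, Tex19.1, Tdrd9 and Lncenc1, the genes that fell were Xlr3c, Dppa4 and Pramel3. Of the genes that rose, Maged2, of the MAGE family, was at 21.3, 21.5 and 22.2 CPM in 67NR tumors and at 39.9, 59.8 and 72.4 CPM in 4T07 (log2 fold 1.40 ± 0.21, adjusted p = 1.29e-04), while Maged1 overlapped. The median turned positive without 67NR tumor 1 (0.16) or 67NR tumor 2 (0.13) with library totals (0.02), with an offset for transcript length (0.23) and without a filter on low counts (0.83), and without 4T07 tumor 3 only 4 were higher. Of 30 Igf-binding and imprinted genes 16 were higher and 5 lower (median 1.28). Meg3, a maternally expressed noncoding RNA, was at 94.9, 32.4 and 42.0 CPM in 67NR tumors and at 226, 195 and 287 CPM in 4T07 (log2 fold 2.06 ± 0.31, adjusted p = 1.06e-04, 2.66 without 67NR tumor 1), and Dlk1, the paternally expressed gene of the same cluster, was at 17.3, 25.4 and 21.2 CPM in 67NR tumors and at 2.17, 2.17 and 3.41 CPM in 4T07 (log2 fold -3.06 ± 0.35, adjusted p = 1.18e-05). Meg3 and Dlk1 moved in opposite directions, each without overlap.

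Neural and axon guidance genes had 21 of 44 higher and 4 lower (median 1.24, 1.08 at bounds). Sema3e, a secreted semaphorin, was at 0.288, 0.660 and 0.326 CPM in 67NR tumors and at 21.6, 34.5 and 21.5 CPM in 4T07 (log2 fold 5.86 ± 0.42, adjusted p = 2.00e-07). Ncam1, a cell adhesion molecule, was at 1.44, 1.32 and 2.93 CPM in 67NR tumors and at 43.5, 24.7 and 39.1 CPM in 4T07 (log2 fold 4.22 ± 0.37, adjusted p = 8.92e-07). Nes, the filament nestin of progenitor cells, was at 117, 144 and 147 CPM in 67NR tumors and at 19.9, 22.8 and 25.4 CPM in 4T07 (log2 fold -2.58 ± 0.22, adjusted p = 6.62e-07), and Sema5a fell from 127, 95.4 and 103 to 27.7, 22.3 and 24.4 CPM (log2 fold -2.13 ± 0.19, adjusted p = 9.89e-07).

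Neighbouring genes that passed in the same direction were listed last, from the order of the RefSeq gene table (GRCm38.p6), in which 16595 of the tested symbols were found. There were 24 runs of at least 5 neighbours, 17 higher and 7 lower. In 4 of the 24 no member that was tested lost the call with a single tumor left out. Runs of related genes included 5 guanylate-binding proteins (Gbp5, Gbp7, Gbp3, Gbp2b and Gbp2) and 6 more elsewhere (Gbp8, Gbp9, Gbp4, Gbp10, Gbp6 and Gbp11). Related genes can share reads, so such runs are not independent calls. A run of 7 in the MHC class II region held H2-DMb2, H2-DMb1, Psmb9, Tap1, Psmb8, Tap2 and H2-Ob, and a run of 7 held Mcpt8, Ctsg and the granzymes Gzme, Gzmd, Gzmg, Gzmf and Gzmc. Gzmf was at 0, 0.990 and 1.30 CPM in 67NR tumors and at 17.2, 24.8 and 37.5 CPM in 4T07 (log2 fold 5.11 ± 0.49, adjusted p = 2.14e-06, 4.48 without 67NR tumor 1, 5.74 without 67NR tumor 3), opposite in direction to Gzma. The stefins and cystatins Stfa2l1, Cstdc4, Csta3, Cstdc5, Stfa2 and Stfa3, of neutrophils, formed another. In these runs Gbp10, H2-DMb2 and Stfa3 each lost the call in some fits with a tumor left out.

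On chromosome 6 Col1a2, Casd1, Sgce, Peg10, Ppp1r9a and Pon3 were all higher, although Casd1 lost the call without 67NR tumor 1. Peg10 and Sgce are paternally expressed imprinted genes. On the X chromosome 8 neighbours from Mospd2 to Tceanc were higher, although Fancb, Trappc2 and Ofd1 among them lost the call with a tumor left out. Of the 8, Gpm6b, a neuronal membrane protein, changed most (11.2, 8.91 and 6.51 against 48.0, 39.6 and 50.1 CPM, log2 fold 2.36 ± 0.22, adjusted p = 2.10e-06). Lower runs included Slc39a5, Nabp2, Rnf41, Smarcc2, Myl6 and Myl6b on chromosome 10, where Myl6, a nonmuscle myosin light chain, was at 1423, 1509 and 1529 CPM in 67NR tumors and at 258, 293 and 216 CPM in 4T07 (log2 fold -2.54 ± 0.19, adjusted p = 2.75e-07). Nabp2 lost the call without 67NR tumor 2 or 4T07 tumor 2.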

How the data were processed

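Gene expression was measured by 3′ tag sequencing with a molecular identifier add-on. Per the labels, reads were trimmed with Trim Galore 0.5.0, aligned with STAR 2.6.0 and counted with featureCounts. The genome build, the annotation, the use of strand in counting and the collapsing of molecular identifiers were not given in the sources used here. The authors deposited raw counts per gene, not normalized, in 1 table of 55487 lines, of which 120 repeated a symbol and were summed. The table had 1 column that was not used, a control scaffold.

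Groups were taken from the labels. Replicate numbers followed the order of samples and named them only. Quasi-likelihood fits were made in edgeR 4.0.16 (R 4.3.3) on the 9 primary tumors of 3 lines, with TMM factors of 0.847 to 0.932 in 67NR and 1.08 to 1.11 in 4T07 tumors, on genes with more than 10 counts over the 6 compared tumors. A gene was called at an adjusted p (Benjamini-Hochberg) under 0.05 and a fold over 2. The change was compared between tumor and spleen by an interaction term over 12 libraries. The fits were tested on simulated data. No 2 tumors of a line agreed within counting noise.

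The comparison, the 57 gene lists and the tests were chosen with earlier results of these data known. Named genes were the 12 most changed non-overlapping genes of at least 5 CPM in each direction, the 10 most abundant called genes in each direction, up to 4 called genes in each direction and up to 2 uncalled genes of each list, the defining markers of cell types, and members of runs of at least 5 called neighbours. Genes outside this rule are marked in the text. Alternatives were DESeq2 1.42.0, its size factors in edgeR, 2 other filters on low counts, the 6 tumors alone, thinned libraries, a fit without the 100 most counted genes, and leaving out each tumor. Library totals without TMM factors and an offset for transcript length were added after the data had been seen.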

Additional observations from a re-analysis of the deposited data

Results flagged for a closer look

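The change between the lines had opposite signs in tumor and spleen for all 12 genes lowest in 4T07 tumors. In the edgeR interaction over 12 libraries the tumor change minus the spleen change was -17.94 for Rhox5, -16.40 for Pnma5, -15.02 for Cldn9, -14.79 for 4930461G14Rik, -14.65 for Lncenc1 and -14.32 for 1700012B09Rik on the log2 scale. It was -13.59 for Gm773, -13.53 for Tex19.1, -12.62 for C78283, -11.96 for Ptprtos, -9.96 for Cfap299 and -9.36 for Tdrd9. These genes were chosen for their tumor change, so the interaction is no independent test. The spleens alone, which the choice did not use, were higher in 4T07 than in 67NR for all 12 genes, with an adjusted p of edgeR between 1.44e-06 for Rhox5 and 0.0171 for Tex19.1. The values are fitted against groups near 0, depend on the prior count and are not bounds. All 3 67NR tumors stood above all 3 4T07 tumors in each gene, and all 3 4T07 spleens held counts of each gene. Of the 12 genes highest in 4T07 tumors, 7 had a lower estimate in 4T07 spleens, none of which passed in the spleens (adjusted p 0.0605 to 0.683). The labels do not link tumors to spleens, and the cause was not tested.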

How the results depend on the processing

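No paired analysis was possible because the labels give no replicate number that links tumors of the 2 lines, and the numbers used here only follow the order of samples. Against 3244 genes higher and 2627 lower, requiring at least 10 counts in each tumor gave 1379 and 1384, library totals without TMM factors gave 4493 and 1698, and an offset for transcript length gave 2125 and 1824 of 13071 genes with a length. The filter tested fewer genes, and for the others the cause was not tested. DESeq2 gave 2925 and 2317. Leaving out 1 tumor gave 2644 to 3333 higher and 2276 to 2658 lower genes. The opposite signs in tumor and spleen held for 12 of 12 genes with DESeq2 and with each of the 12 libraries left out, the filter of 10 counts in each library gave no value, and no other alternative was run for it. Of 443 named genes past the threshold, 76 lost the call in at least 1 alternative, 59 of them with a tumor left out. A gene that a setting did not test, or gave no adjusted p, was not counted as lost there. The filter of 10 counts in each tumor tested 10650 of the 18943 genes, so stability is not shown for the genes it removed. With a tumor left out, the Myh4 log2 fold change ranged from -3.98 to 0.0079, the Pvalb log2 fold change from -5.30 to 0.24 and the Tnnt3 log2 fold change from -4.09 to 0.27, and these muscle genes changed direction without 67NR tumor 3. Lists with few counts per gene lost most under the filter, with 7 neutrophil, 4 T cell and 1 B cell genes higher and no eosinophil gene tested. Depth limits such genes, and a level under 3 counts was not detectable here.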
